A study of Homo sapiens and Mus musculus with 27 samples.

Results

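The cytosolic ribosomal protein genes were taken as every gene name of the form RPL or RPS followed by a number, with an optional A, X or L, together with RPLP0, RPLP1, RPLP2, RPSA and FAU. This gave 85 of 59453 gene names in the human count tables and 90 of 55367 in the mouse table. The set covers the small subunit proteins, the large subunit proteins with the stalk proteins RPLP0, RPLP1 and RPLP2, and a few paralogs whose names end in L or L1. RPL36AL, which encodes a ribosomal protein under another form of name, falls outside the rule. The rule itself uses names only and no measured value, but it was set with earlier results of these data known.

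RNA was measured in 27 libraries from 3 experiments, each with 3 groups of 3 replicates. In human LM2 cells, a metastatic breast cancer line, and in mouse 4T1 cells, a mammary carcinoma line, a control group was compared with cells overexpressing wild-type MKL1 and with cells overexpressing caMKL1. In the LifeAct experiment LM2 cells were negative, low or high for LifeAct, an actin-binding peptide used to label filamentous actin. The LM2 and 4T1 experiments used polyA selection and the LifeAct experiment used depletion of ribosomal RNA, so levels were compared within an experiment. The genotype label is WT for the control, MKL1 and LifeAct groups, and it reads caMKL1, caMKL2 and caMKL3 over replicates 1 to 3 of the caMKL1 groups, whose titles and treatment labels give caMKL1. These 3 were taken as caMKL1 replicates. Construct sequences, the promoter, the use of clones or pools and the way LifeAct cells were separated are not given in the labels. Nothing in them says that replicates came from separate cultures, so p-values measure only the spread between these libraries.

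Each cytosolic ribosome contains 1 copy of most ribosomal proteins, and the genes for them are among the most highly expressed in growing cells. Their mRNAs typically start with a run of pyrimidines, the terminal oligopyrimidine (TOP) motif, through which mTOR and the RNA-binding protein LARP1 adjust translation and mRNA stability, and MYC is a known activator of ribosome production. MKL1 (gene MRTFA) is a coactivator of serum response factor: it is held in the cytoplasm by monomeric actin and enters the nucleus when actin polymerises, and the prefix ca in caMKL1 is commonly used for a constitutively active form.

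The start sites of 9 human members named below are shown as examples. They are 3 canonical members with a TOP start, the pairs RPS27 with RPS27L and RPL22 with RPL22L1, and 2 others without a TOP start. Of the last, RPS29 rose in LM2 caMKL1 cells and RPS4X fell in LifeAct cells, against most of the family. RPL39, which has a TOP start, also rose in LM2 caMKL1 cells. Whether the kind of start bears on these directions was not tested. Each line gives the 15 bases before and the first 15 bases from the RefSeq start (GRCh38.p14), read 5′ to 3′ on the gene's strand, with the pyrimidine run that covers the start in capitals.
RPS12: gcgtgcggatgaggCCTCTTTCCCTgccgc
RPL13A: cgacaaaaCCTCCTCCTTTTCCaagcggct
RPL39: ttcttccgccagCTTCCCTCCTCTTCCTTT
RPS27: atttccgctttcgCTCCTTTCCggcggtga
RPS27L: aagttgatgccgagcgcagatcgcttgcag
RPL22: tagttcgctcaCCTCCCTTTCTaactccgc
RPL22L1: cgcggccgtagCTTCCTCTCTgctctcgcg
RPS29: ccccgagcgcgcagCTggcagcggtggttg
RPS4X: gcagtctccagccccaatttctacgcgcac
The windows lie at chr6:132814554-132814583 on the plus strand for RPS12, chr19:49487593-49487622 on the plus strand for RPL13A and chrX:119791616-119791645 on the minus strand for RPL39. They lie at chr1:153990747-153990776 (plus) for RPS27, chr15:63157463-63157492 (minus) for RPS27L, chr1:6199581-6199610 (minus) for RPL22 and chr3:170870181-170870210 (minus) for RPL22L1. RPS29 was read at chr14:49598696-49598725 and RPS4X at chrX:72277234-72277263, both on the minus strand. RPS27L and RPS4X have no pyrimidine run at the annotated start, and that of RPS29 is 2 bases long. The RPS29 window lies near the 5′ end of a gene annotated at chr14:49570984-49599164, whose exons sum to 9840 bases. Whether the annotated starts are those used in these cells was not tested.

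Of the 85 human members, 68 were matched by symbol to a RefSeq promoter. A TOP start was found in 48 of the 68 (70.6%) and in 1404 of all 27305 gene symbols with a promoter (5.14%). A symbol was counted where any of its promoters had the feature. A TOP start was counted where the first base is C and the run of pyrimidines from it is at least 5 bases long. In the 30-base window on the gene's strand, CTTTC was found in 32 members (47.1%) against 5.49% of all symbols, and CTTTT in 17 members (25.0%) against 4.67%. On the other strand CTTTC was found in 2 members (2.94%) against 4.05% of all symbols. In the 300 bases from 250 before to 50 after the start, the serum response factor site known as the CArG box, searched on both strands, was found in 3 members, RPL24, RPS27A and RPS28 (4.41% against 1.60% of all symbols). The E-box CACGTG, which MYC can bind, was found in 5 members (7.35% against 8.77%). A match is a description of the sequence and not a bound site.

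The total count of a library ran from 22147429 to 32147377 for LM2, from 21896459 to 29370432 for 4T1 and from 15581289 to 23678322 for LifeAct. The MKL1 gene MRTFA checked the labels: it was at 10.6, 10.3 and 11.5 CPM (a library-scaled count) in LM2 controls, 164, 181 and 140.2 in MKL1 and 175, 257 and 223 in caMKL1. KRT8, KRT18, EPCAM and vimentin were detected in every group, while CDH1 was at most 0.55 CPM in LM2 cells. In LM2, replicate 1 stood apart within the MKL1 and caMKL1 groups in its share of member counts, and results that rest on it are given with and without it. Of 7 markers of leukocytes, endothelium and fibroblasts, the summed level was 14.4 to 17.5 CPM in LM2 controls, 8.48 to 13.8 in MKL1 and 6.20 to 7.47 in caMKL1, with DCN at 0 in the controls. In 4T1 it was 11.5 to 12.2 in controls, 26.6 to 28.6 in MKL1 and 59.0 to 66.2 in caMKL1, where CD68 made up 56.6 CPM and DCN was at 0. In LifeAct it was 129 to 132 in negative, 58.1 to 60.8 in low and 27.5 to 30.7 in high cells, led in negative cells by PECAM1 at 91.8 CPM. The markers thus differed among themselves: PTPRC, CDH5 and DCN were at most 3.13 CPM in any group, while PECAM1 and CD68 reached the levels just given. The part of these markers in the results below was not tested.

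Members took less of the RNA in caMKL1 cells of both lines and more of it in LifeAct cells. Of all counts, members made up 2.64, 2.74 and 2.65% in LM2 controls, 3.83, 2.64 and 2.73% in MKL1 and 1.81, 1.48 and 1.47% in caMKL1 cells. In 4T1 the shares were 3.51, 3.51 and 3.50% in controls, 2.95, 2.99 and 2.93% in MKL1 and 2.37, 2.49 and 2.50% in caMKL1 cells. In LifeAct cells they were 3.37, 3.34 and 3.22% in negative, 3.73, 3.71 and 3.74% in low and 3.63, 3.50 and 3.55% in high cells. The libraries of each group lay outside the range of its controls in all of these comparisons except LM2 MKL1, where replicate 1 lay above the controls and the other 2 replicates at their level. The mean share was 1.69-fold lower in LM2 caMKL1, 1.19-fold lower in 4T1 MKL1, 1.43-fold lower in 4T1 caMKL1, 1.13-fold higher in LifeAct low and 1.07-fold higher in LifeAct high than in the matching control. For 8 of the 9 comparisons within an experiment a two-sided exact permutation test gave p = 0.1, the smallest that 3 libraries against 3 allow (0.113 adjusted over the 9), and for LM2 MKL1 it gave p = 0.7 (adjusted 0.7). From bulk RNA, less RNA of these genes per cell and fewer cells of a type that expresses them cannot be told apart.

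**Figure D1:**
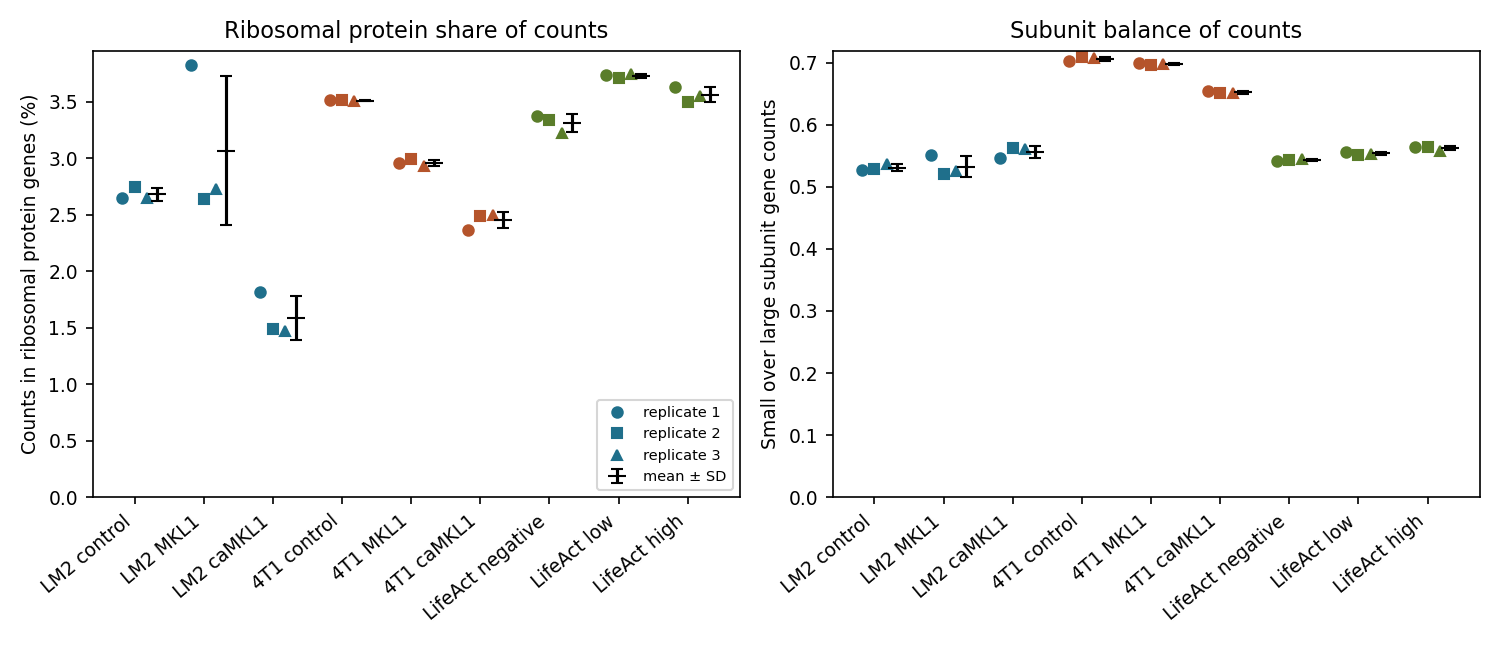
Percent of all counts in the cytosolic ribosomal protein genes (y axis) for each of the 27 libraries (points, 3 per group) on the left, and small over large subunit counts on the right, with the group mean ± SD. LM2 caMKL1 libraries sit at 1.47 to 1.81%, below the controls at 2.64 to 2.74%, and LM2 MKL1 replicate 1 stands alone at 3.83%.

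Mitochondrially encoded RNA lay above the LM2 controls in caMKL1 replicates 2 and 3, those with the lowest member shares, and within the control range in replicate 1. It made up 7.84, 7.73 and 8.94% of counts in controls and 7.76, 13.4 and 13.6% in caMKL1 cells. With those genes left out of the totals, members made up 2.87, 2.97 and 2.91% in controls and 1.96, 1.71 and 1.70% in caMKL1 cells, which still did not overlap. The balance between subunits moved less than the total. Small subunit counts per large subunit count were 0.531 ± 0.00515 (SD, n = 3) in LM2 controls and 0.557 ± 0.00941 in caMKL1. In 4T1 they were 0.707 ± 0.00313 in controls, 0.699 ± 0.00144 in MKL1 and 0.653 ± 0.00213 in caMKL1, and in LifeAct 0.544 ± 0.00136 in negative, 0.554 ± 0.00260 in low and 0.562 ± 0.00360 in high cells. The caMKL1 groups thus moved in opposite directions in the 2 lines, each without overlap with its control (exact permutation test, two-sided, p = 0.1, adjusted 0.129 over 9 comparisons).

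Gene by gene, the ratios of wild-type MKL1 to control in LM2 were small, and how many passed the test depended on the setting. Of 83 members tested, 3 were higher, 0 lower and 80 did not pass edgeR's quasi-likelihood test at a Benjamini-Hochberg adjusted p of 0.05, against 7.25% of all genes called higher and 4.74% lower. None had a negative log2 ratio, and the median was 0.29 against 0.01 over all genes, with all 3 MKL1 libraries in the fit. Members held 3.83% of counts in MKL1 replicate 1 and 2.64 and 2.73% in replicates 2 and 3, against 2.64 to 2.74% in controls. By this share only replicate 1 lay above the controls, and the median without it is not given here. Small subunit members gave 0 calls of 32, large subunit members 2 of 46 and the paralogs 1 of 5. The paralog RPL22L1 was at 152, 104 and 86.6 CPM in MKL1 cells and 65.5, 65.4 and 54.3 CPM in controls, with every MKL1 library above every control. Its log2 ratio was 0.89 ± 0.16 (SE) (edgeR, adjusted p = 0.0018), and 0.63 without MKL1 replicate 1. RPL14, a large subunit protein, was at 570.2, 475 and 442 against 375, 389.8 and 367 CPM, a log2 ratio of 0.39 ± 0.10 (SE) (edgeR, adjusted p = 0.021), without overlap. RPL9, which sits near the base of the stalk, was at 733, 496 and 496 against 431, 451 and 411 CPM, a log2 ratio of 0.42 ± 0.13 (SE) (edgeR, adjusted p = 0.049), also without overlap. For each of these 3 genes replicate 1 was the highest MKL1 library.

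The count of 3 was 9 with DESeq2, 1 with library totals in place of the scaling factors, and 55 with no filter on low counts. Single libraries moved it as well. Without MKL1 replicate 1, or without any 1 of the 3 controls, it was 1, without MKL1 replicate 2 it was 23, without MKL1 replicate 3 it was 20 and without caMKL1 replicate 1 it was 5. RPL14 lost its call without any 1 control (edgeR, adjusted p = 0.063 to 0.099) or without MKL1 replicate 1 (log2 0.28, adjusted p = 0.051). By edgeR's test, RPL9 lost its call without any 1 control, without MKL1 replicate 1 (log2 0.20, adjusted p = 0.15) or without caMKL1 replicate 2 or 3. Other members had the same profile of 1 high library, which is named here after the values were seen. FAU, a ubiquitin-like protein fused to a small subunit protein, was at 123.2, 67.8 and 73.2 CPM against 63.5, 62.4 and 62.5 in controls (edgeR, adjusted p = 0.067). The stalk protein gene RPLP1 was at 368, 193 and 205 against 197, 197 and 192 CPM (edgeR, adjusted p = 0.21), with replicate 2 inside the range of the controls.

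With caMKL1 in LM2, 45 of 83 members fell, 4 rose and 34 did not pass, against 33.0% of all genes called lower and 31.9% higher. The members' median log2 ratio was -0.39 and that of all genes -0.05. With library totals in place of the TMM scaling (trimmed mean of M-values), which shifts the median of all genes to -0.46, the members' median was -0.80 with 70 lower and 1 higher. In the small subunit 14 of 32 members fell and 1 rose (median -0.36), in the large subunit 29 of 46 fell and 1 rose (median -0.41), and of the 5 paralogs 2 rose and 2 fell. Without MKL1 replicate 1, whose spread enters the fit, 7 members were called higher.

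RPS2, a small subunit protein at the mRNA entry side, was at 213, 197 and 177 CPM in caMKL1 cells and 379, 386 and 397 CPM in controls. The ranges were far apart, and the log2 ratio was -0.98 ± 0.13 (SE) (edgeR, adjusted p = 7.4e-06). RPSA, which also acts as a laminin receptor precursor, was at 312, 239 and 239 against 380.5, 388 and 372 CPM, with a log2 ratio of -0.53 ± 0.13 (SE) (edgeR, adjusted p = 0.0016). RPS29, a short zinc-binding protein of the small subunit head (RPS29, chr14:49570984-49599164, minus strand, GRCh38), went the other way, at 115, 148 and 138 CPM against 56.2, 58.1 and 55.1. Every caMKL1 library lay far above the controls, with a log2 ratio of 1.24 ± 0.18 (SE) (edgeR, adjusted p = 2.2e-05), and 0.83 with library totals. Of its annotated exon bases, 8.20% also lie in LRR1 or a pseudogene. RPS27, RPS27A and FAU did not pass, with log2 ratios of 0.26, 0.07 and 0.03.

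In the large subunit, RPL4, a protein that lines the exit tunnel, was at 509.6, 472 and 462 CPM in caMKL1 cells and 909, 944 and 898 CPM in controls, a log2 ratio of -0.93 ± 0.09 (SE) (edgeR, adjusted p = 1.5e-07). RPL29, also known as a heparin-binding protein, was at 149, 114 and 111 against 233, 244 and 214 CPM, with the caMKL1 libraries all lower (log2 -0.88 ± 0.14 (SE), edgeR, adjusted p = 5.2e-05). The largest fall was that of RPL36A, at 6.27, 8.84 and 6.26 against 15.6, 18.4 and 14.1 CPM (log2 -1.17 ± 0.17 (SE), edgeR, adjusted p = 1.7e-05). RPL36A and RPL17 are counted at low levels and share 22.4% and 35.3% of their exon bases with other annotated genes, among them the read-through genes RPL36A-HNRNPH2 and RPL17-C18orf32. Reads in shared bases were left uncounted. RPL17, at the tunnel exit, was at 3.999, 4.98 and 4.47 against 7.23, 8.66 and 7.88 CPM (log2 -0.82 ± 0.15 (SE), edgeR, adjusted p = 0.00020). RPL39, the very short protein of the exit tunnel, was the large subunit member that rose, at 161, 147 and 139 against 92.4, 108 and 90.1 CPM. Its log2 ratio was 0.62 ± 0.16 (SE) (edgeR, adjusted p = 0.0030), and 0.22 (adjusted p = 0.29) with library totals. Among the stalk genes, which recruit the translation GTPases, RPLP0 was at 499, 335 and 326 against 568, 610.1 and 533 CPM, with a log2 ratio of -0.56 ± 0.18 (SE) (edgeR, adjusted p = 0.015). That edgeR call was lost without caMKL1 replicate 2 (adjusted p = 0.070) or replicate 3 (adjusted p = 0.074). RPLP1 and RPLP2 did not pass, with log2 ratios of -0.13 and -0.11.

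Set against wild-type MKL1, caMKL1 in LM2 gave 70 lower members, 1 higher and 12 that did not pass, beside 31.9% of all genes lower and 32.6% higher (median -0.68 against -0.04). Library totals shift all genes to -0.38 and the members to -1.01. The largest falls were those of RPS2 (log2 -1.23 ± 0.13 (SE)), RPL36A (-1.22), RPL17 (-1.15), RPL13A (-1.09), RPL4 (-1.07) and RPS19 (-1.05). RPS29 was the member that rose, by 0.69 ± 0.18 (SE) (edgeR, adjusted p = 0.0034), although MKL1 replicate 1 at 119 CPM lay inside the caMKL1 range. Without MKL1 replicate 1, 4 members were called higher.

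In 4T1, wild-type MKL1 gave a small and even fall. Of 85 members tested 75 fell, 0 rose and 10 did not pass, against 15% of all genes called lower and 19.3% higher. The median was -0.18 against -0.00 over all genes, and it was alike in the small subunit (32 of 34 lower, median -0.19) and the large subunit (42 of 48 lower, median -0.18). In 4T1 the large subunit class includes Rpl32l and Rpl6l and the small subunit class Rps3a2 and Rps3a3, which were not counted with the paralogs. The mouse classes thus differ from the human ones. Rpl13a, a large subunit protein also known for its release into a translational silencing complex, was at 35.2, 35.3 and 36.6 CPM in MKL1 cells and 49.9, 47.7 and 47.6 CPM in controls. The ranges did not meet, and the log2 ratio of -0.44 ± 0.05 (SE) (edgeR, adjusted p = 1.4e-07) was the largest. Rpl26 was at 39.9, 43.9 and 37.5 against 53.4, 50.1 and 55.2 CPM (log2 -0.38), and Rpl23a, which docks factors at the tunnel exit, at 147, 151 and 159 against 200.5, 187 and 188 CPM (log2 -0.33), neither with overlap. Rps7, a small subunit protein that can bind MDM2, was at 319.9, 329 and 324 against 413, 405 and 396 CPM (log2 -0.32 ± 0.03 (SE), edgeR, adjusted p = 6.4e-09). Of the stalk and receptor genes, the log2 ratio was -0.31 for Rplp1, -0.20 for Rpsa and -0.14 for Rplp0, all past the test. The paralogs Rpl22l1 and Rps27l did not pass, at -0.14 and -0.03. One gene had a positive ratio, Rps3a3, at 0.09 (edgeR, adjusted p = 0.76).

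With caMKL1 in 4T1, 73 of 85 members fell, 4 rose and 8 did not pass, against 35.8% of all genes called lower and 36.2% higher. The median was -0.42 against -0.02 over all genes, and -0.60 against -0.21 with library totals. The small subunit (32 of 34 lower, 1 higher, median -0.48) had a lower median than the large (40 of 48 lower, 2 higher, median -0.34), beside the lower ratio of small to large subunit counts given above. The classes are those described for MKL1. Rps19, the gene most often mutated in Diamond-Blackfan anaemia, was at 124, 134 and 132 CPM against 222, 234 and 232 in controls (log2 -0.82 ± 0.03 (SE), edgeR, adjusted p = 2.1e-16). Rps12 was at 248, 267 and 269 against 441, 426 and 457 CPM, a log2 ratio of -0.75 ± 0.04 (SE) (edgeR, adjusted p = 4.5e-15). Both genes had every caMKL1 library well below every control. Rpsa was at 1130.3, 1169 and 1170.1 against 1727, 1684 and 1689 CPM (log2 -0.56 ± 0.03 (SE)), and Rps29, which rose in LM2, was at 111, 128 and 131 against 173, 168 and 173 CPM (log2 -0.48 ± 0.04 (SE)). In the stalk Rplp1, Rplp2 and Rplp0 fell by 0.61, 0.58 and 0.50 on the log2 scale. Of the genes fused to ubiquitin or a like domain, Rps27a fell by 0.29 and Fau by 0.39.

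The largest fall in 4T1 caMKL1 was that of Rpl13a (GRCm38 chr7:45125558-45128761, minus strand), at 18.5, 17.7 and 19.1 CPM against 49.9, 47.7 and 47.6 in controls, a log2 ratio of -1.40 ± 0.05 (SE) (edgeR, adjusted p = 4.2e-17). Other annotated genes share 35.4% of its exon bases. Rps10 was at 4.23, 3.76 and 3.10 against 10.1, 8.35 and 5.87 CPM (log2 -1.14 ± 0.19 (SE)) and shares 28.7% of its exon bases, so its counts cover only a part of the gene. Rpl39 fell as well, at 109, 123.4 and 118 against 169, 205 and 205 CPM (log2 -0.72 ± 0.06 (SE), edgeR, adjusted p = 6.0e-11), the opposite of its rise in LM2. The members that rose were Rps27l, described with the paralogs, Rpl17, Rpl10 and Rps2. Rpl17 was at 554, 594 and 616 against 476, 461 and 475 CPM (log2 0.32 ± 0.03 (SE), edgeR, adjusted p = 2.6e-09), without overlap. Rpl10, which joins the large subunit late in its assembly, was at 892, 887 and 919.5 against 741, 789 and 792 CPM (log2 0.22 ± 0.03 (SE)), and at 0.03 (edgeR, adjusted p = 0.28) with library totals. Rps2 was at 572, 580.5 and 592 against 561, 559 and 552 CPM, a log2 ratio of 0.06 ± 0.03 (SE) (edgeR, adjusted p = 0.036). That edgeR call was lost without control replicate 2 (adjusted p = 0.064) or 3 (0.12), MKL1 replicate 1 (0.052) or 2 (0.058), or caMKL1 replicate 2 (0.066) or 3 (0.11), and the sign turned to -0.12 (adjusted p = 0.00014) with library totals. Set against wild-type MKL1, caMKL1 gave 60 lower, 10 higher and 15 that did not pass, beside 32.8% of all genes lower and 33.8% higher (median -0.22 against -0.01). Library totals shift all genes to -0.13 and the members to -0.34.

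**Figure D2:**
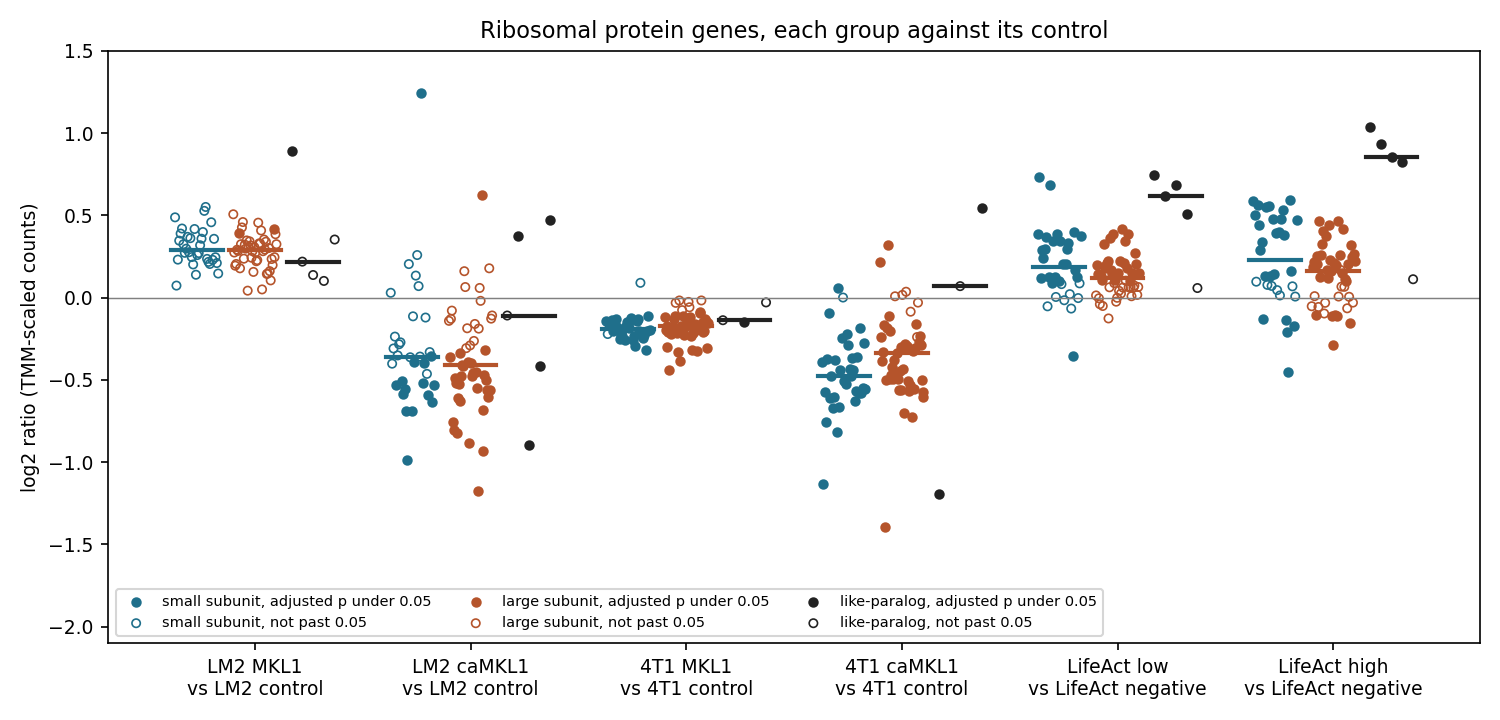
Log2 ratio to the matching control (y axis) of each tested member in the 6 comparisons with a control group, by subunit and paralog class, with class medians as bars and open points for members that did not pass the test. The caMKL1 medians lie below 0 in both lines for the small and large subunits, the LifeAct medians lie above 0, and the paralogs reach the highest values in LifeAct high cells.

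In the LifeAct experiment most members were higher in low than in negative cells. Of 83 tested, 53 rose, 1 fell and 29 did not pass, against 26.0% of all genes higher and 23.6% lower (median 0.145 against -0.01). In the small subunit 23 of 32 rose and 1 fell (median 0.18), in the large subunit 26 of 46 rose (median 0.12), and 4 of 5 paralogs rose (median 0.62). RPSA was at 669.5, 668 and 666 CPM in low and 516, 523 and 507 CPM in negative cells (log2 0.37), and FAU at 161, 162 and 161 against 128, 126 and 116 CPM (log2 0.38), both without overlap. RPS10 had the largest rise of the small subunit, with a log2 ratio of 0.73 ± 0.13 (SE) at a low level, and 40.3% of its exon bases lie in other annotated genes. RPS4X, the small subunit protein gene on the X chromosome, was the member that fell, at 482, 468 and 491 against 628, 634 and 583 CPM (log2 -0.36 ± 0.04 (SE), edgeR, adjusted p = 1.3e-08). Without negative replicate 1, 2 members were called lower.

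In LifeAct high cells 52 members were higher than in negative cells, 11 lower and 20 did not pass, against 36.0% of all genes higher and 35.2% lower (median 0.168 against -0.03). In the small subunit 20 of 32 rose and 5 fell, in the large subunit 28 of 46 rose and 6 fell, and 4 of 5 paralogs rose. FAU was at 192, 181 and 184 CPM in high and 128, 126 and 116 CPM in negative cells, a log2 ratio of 0.59 ± 0.04 (SE) (edgeR, adjusted p = 1.3e-12). RPS27A, ubiquitin fused to a small subunit protein, was at 456, 439 and 429.6 against 309.8, 321 and 321 CPM (log2 0.48 ± 0.04 (SE)). Both genes had every high library above every negative one. The falls were led by RPS4X, at 464, 435 and 450.5 CPM in high cells (log2 -0.45 ± 0.04 (SE), edgeR, adjusted p = 3.8e-11), and by RPL3, a protein close to the peptidyl transferase centre, at 728, 663 and 671 against 868, 861 and 791 CPM (log2 -0.29 ± 0.04 (SE)). RPS3A (log2 -0.21), RPL7A (-0.15) and RPS3 (-0.14) fell by less, and the libraries of RPL7A and RPS3 overlapped between the groups. RPS3 lost its edgeR call without high replicate 2 (log2 -0.10, adjusted p = 0.056), and the number of members lower was then 7. In the stalk RPLP1 rose, at 674, 697 and 712 against 575, 578 and 581 CPM (log2 0.26), while RPLP0 did not pass at -0.03 (edgeR, adjusted p = 0.47).

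Between high and low cells fewer members differed. Of 83, 17 were higher, 8 lower and 58 did not pass, against 26.6% of all genes higher and 23.7% lower, so both shares lay below the background. The median was 0.013 against -0.04 over all genes. With library totals, which shift all genes to -0.11, 13 were higher and 30 lower with a median of -0.06, and without high replicate 1, 14 were lower. The higher members were led by RPL7L1 (log2 0.32 ± 0.04 (SE)), RPL26L1 (0.32), RPL22L1 (0.30), RPS12 (0.28), RPS27A (0.27) and RPS28 (0.24). Among the lower ones were RPL3 (log2 -0.29 ± 0.04 (SE)), RPL7A (-0.23), RPS3 (-0.16), RPL31 (-0.15) and RPS3A (-0.14).

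Members matched by symbol were then compared between the lines and with LifeAct, whose controls are separate. Of 80 members tested in all 3 experiments, 43 were lower with caMKL1 in LM2 and 69 in 4T1, and 38 were lower in both, which is 88.4% of the LM2 list and 55.1% of the 4T1 list. The first share is read beside the 69 of 80 lower in 4T1 in all, and whether the overlap differs from it was not tested. The numbers called also rest on unlike spread between libraries, with a coefficient of variation of 0.118 in LM2 and 0.0345 in 4T1. In simulated counts, 37% of 1.5-fold changes were recovered for LM2 caMKL1 and 60% for 4T1 caMKL1. The 43 and 69 are thus no measure of which line responded more. Of the 38 lower in both lines, 23 were higher in LifeAct high than in negative cells, beside 52 of 83 among all members tested. Among these 23 were RPL4, RPL13A, RPS6, RPS19 and RPSA. Among the members lower in all 3 were RPL13 (log2 -0.75 in LM2 caMKL1, -0.16 in 4T1 caMKL1 and -0.11 in LifeAct high), RPL29 (-0.88, -0.45 and -0.11), RPL7A (-0.56, -0.27 and -0.15) and RPS3 (-0.52, -0.37 and -0.14). No member was higher in all 3. RPS29 and RPL39 were called higher in LM2 and lower in 4T1, and RPL17 and RPS2 lower in LM2 and higher in 4T1. With library totals the RPL39 call in LM2 was lost (log2 0.22, edgeR, adjusted p = 0.29), and RPS2 was lower in 4T1 too (log2 -0.12, adjusted p = 0.00014). RPL17 is counted at a low level and only in part in LM2, as described above. RPL4, RPS6 and RPS19 are named here as examples chosen after their values were seen.

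**Figure D3:**
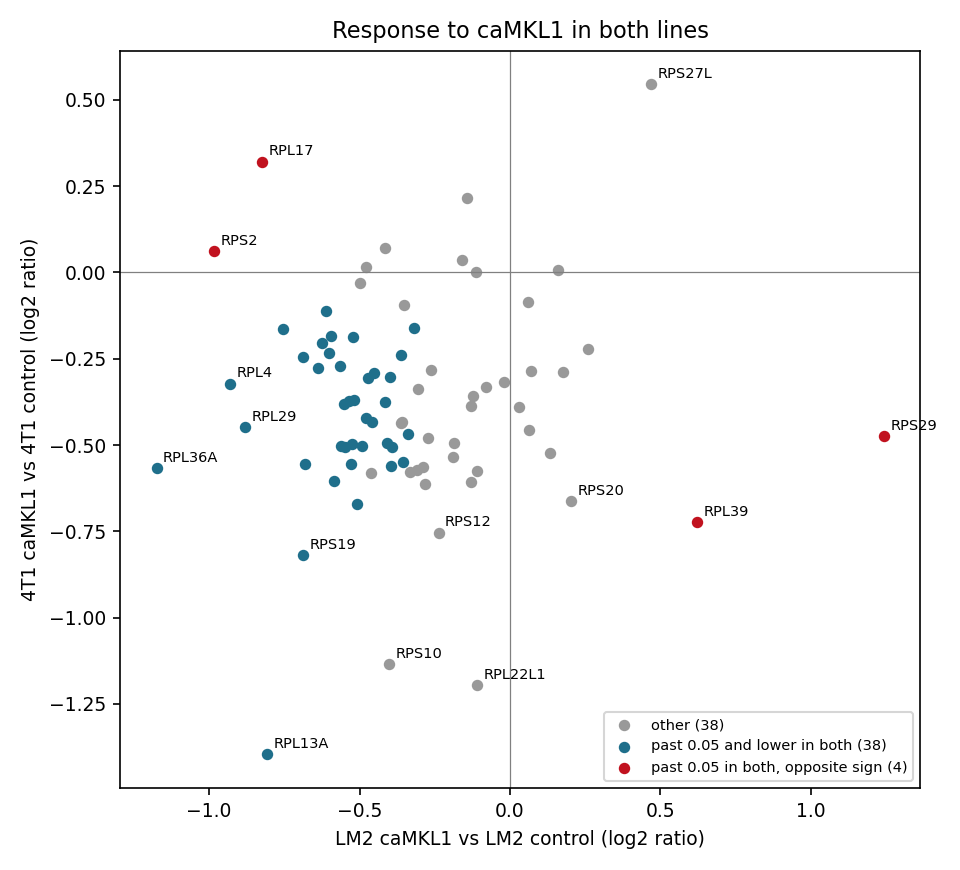
Log2 ratio of caMKL1 to control in LM2 (x axis) and in 4T1 (y axis) for 80 matched members. The 38 members lower in both lines are blue, and the 4 called in opposite directions, RPS29, RPL39, RPL17 and RPS2, are red.

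A difference in response between LM2 and 4T1 was tested as an interaction over the 18 LM2 and 4T1 libraries and 81 shared members. For caMKL1, 9 members had a higher response in 4T1 than in LM2, 26 a lower one and 46 did not pass, against 30.7% of all genes higher and 29.6% lower (median -0.15 against 0.03). With library totals, which shift all genes to 0.37, the split was 22 higher and 5 lower with a median of 0.18, so the direction of the family as a whole follows the scaling. The 5 members named next kept their sign and call in every alternative. The 4T1 minus LM2 response was -1.85 ± 0.21 (SE) for RPS29 (edgeR, adjusted p = 1.5e-07), -1.48 ± 0.19 (SE) for RPL39 and -1.22 ± 0.20 (SE) for RPL22L1. It was 1.02 ± 0.12 (SE) for RPL17 (edgeR, adjusted p = 2.6e-07) and 0.92 ± 0.14 (SE) for RPS2. For RPL17, 35.3% of the exon bases are shared with other annotated genes in the human and 0% in the mouse, so unlike parts of the gene were counted. The number higher was 15 without LM2 caMKL1 replicate 1 and 14 without LM2 MKL1 replicate 1, and the number lower 17 without LM2 control replicate 1 or 3 or 4T1 control replicate 2 and 16 without 4T1 caMKL1 replicate 1.

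For wild-type MKL1 the estimates of all 81 members were lower in 4T1 than in LM2, also with library totals. That of RPL39L (-1.85 ± 1.51 (SE), edgeR, adjusted p = 0.46) is no measured response, as Rpl39l had 1 count in the 9 4T1 libraries. Of the 81 members, 55 passed the test with 0 higher, against 10.6% of all genes lower and 9.32% higher (median -0.50 against -0.02). With library totals 31 passed. The largest difference that passed was that of RPL22L1 (-1.05 ± 0.19 (SE), edgeR, adjusted p = 0.00061), followed by RPS29 (-0.87), RPS28 (-0.78), RPL26 (-0.75), RPL13A (-0.74) and RPL36 (-0.74). RPL14 and RPL9, called higher in LM2 and lower in 4T1, differed by -0.61 ± 0.10 (SE) and -0.57 ± 0.14 (SE). The count fell to 31 without LM2 control replicate 1, 30 without LM2 control replicate 3 or 4T1 control replicate 2, 36 and 33 without 4T1 control replicate 1 and 3, and 29 and 31 without 4T1 MKL1 replicate 1 and 3. Without replicate 1 of LM2 MKL1 and caMKL1 the difference was -0.53 for RPS29, -0.42 for RPL36 and -0.37 for RPL9, each still past edgeR's test. RPS28 lost its call in most leave-outs and moved to -0.33 (edgeR, adjusted p = 0.11) without LM2 MKL1 replicate 1. The lines differ in species and annotation, which cannot be told apart from the cells.

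The paralogs did not move as a block with the canonical genes. RPL22L1, the paralog of the RNA-binding protein RPL22, was at 42.4, 38.1 and 39.4 CPM in LifeAct low, 47.7, 50.2 and 49.5 in high and 21.3, 23.6 and 26.8 in negative cells, and its log2 ratio to negative cells was 0.74 ± 0.07 (SE) in low and 1.04 ± 0.07 (SE) in high cells (edgeR, adjusted p = 2.6e-13). In 4T1 caMKL1 it fell to 20.2, 22.2 and 23.1 CPM from 46.7, 52.0 and 51.3 CPM (log2 -1.20 ± 0.06 (SE), edgeR, adjusted p = 2.6e-14). In LM2 caMKL1 it did not pass (log2 -0.11). RPL7L1, the paralog of RPL7, was at 490.2, 469 and 469 CPM in LifeAct high and 262, 274 and 270.0 in negative cells (log2 0.82 ± 0.04 (SE), edgeR, adjusted p = 1.7e-17), while RPL7 did not pass at 0.00. RPL26L1 and RPL39L also rose in LifeAct high cells, by 0.94 ± 0.08 (SE) and 0.85 ± 0.09 (SE). In LM2 caMKL1, RPL39L, known for its high level in male germ cells, was at 6.85, 6.96 and 5.56 against 11.97, 12.99 and 11.1 CPM (log2 -0.89 ± 0.15 (SE), edgeR, adjusted p = 5.6e-05). RPL7L1 fell there by 0.42 on the log2 scale. RPL26L1 rose by 0.38 ± 0.12 (SE) (edgeR, adjusted p = 0.012), a call that was lost without caMKL1 replicate 2 (0.33, adjusted p = 0.056) and a sign that turned to -0.035 with library totals.

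RPS27L, a p53-inducible paralog of RPS27, rose with caMKL1 in both lines. It was at 55.8, 48.5 and 51.0 against 36.6, 38.3 and 37.4 CPM in LM2 (log2 0.47 ± 0.13 (SE), edgeR, adjusted p = 0.0043), and at 0.06 (adjusted p = 0.71) with library totals. In 4T1 it was at 77.3, 77.5 and 78.6 against 48.0, 58.2 and 53.5 CPM (log2 0.55 ± 0.06 (SE), edgeR, adjusted p = 4.3e-09), without overlap. In LifeAct high cells it did not pass, at 0.11. RPL10L and RPL3L had at most 3 and 13 counts in any human library and were not tested. In 4T1, Rpl10l, Rpl39l, Rpl3l, Rps12l1 and Rps4l had at most 6 counts in any library and were not tested either.

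Counts of a paralog per 100 counts of its partner in the same library do not depend on scaling between libraries. RPL22L1 per 100 RPL22 was 54.2, 52.0 and 62.3 in LifeAct negative, 106, 97.7 and 104 in low and 132, 122 and 117 in high cells, 3 ranges that did not meet. In 4T1 it was 16.2, 17.5 and 16.5 in controls and 9.60, 9.74 and 9.91 in caMKL1 cells. In LM2 it was 95.0, 89.6 and 72.3 in controls, 154, 119 and 108 in MKL1 and 124, 103.3 and 107 in caMKL1 cells. Relative to its partner the paralog was thus higher in the LM2 and LifeAct groups than in their controls and lower in 4T1 caMKL1 cells, each without overlap (two-sided exact permutation test, p = 0.1, adjusted 0.129 over 9 comparisons). RPL39L per 100 RPL39 was 12.96, 12.03 and 12.3 in LM2 controls and 4.24, 4.74 and 3.99 in caMKL1 cells, 2.87-fold lower in the mean (exact permutation test, two-sided, p = 0.1, adjusted 0.12 over 6 comparisons). Rps27l per 100 Rps27 was 17.4, 19.8 and 17.8 in 4T1 controls and 32.3, 30.3 and 31.5 in caMKL1 cells, 1.71-fold higher. RPL7L1 per 100 RPL7 went from 75.2 ± 1.56 (SD, n = 3) in LifeAct negative to 102.5 ± 1.54 in low and 132.7 ± 3.86 in high cells, and RPL26L1 per 100 RPL26 from 10.1 ± 0.971 to 13.99 ± 0.632 and 17.6 ± 0.678. In LM2, RPL7L1 per 100 RPL7 was 81.8 ± 7.07 in controls and 86.9 ± 6.81 in caMKL1 cells, within the spread (exact permutation test, p = 0.5).

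**Figure D4:**
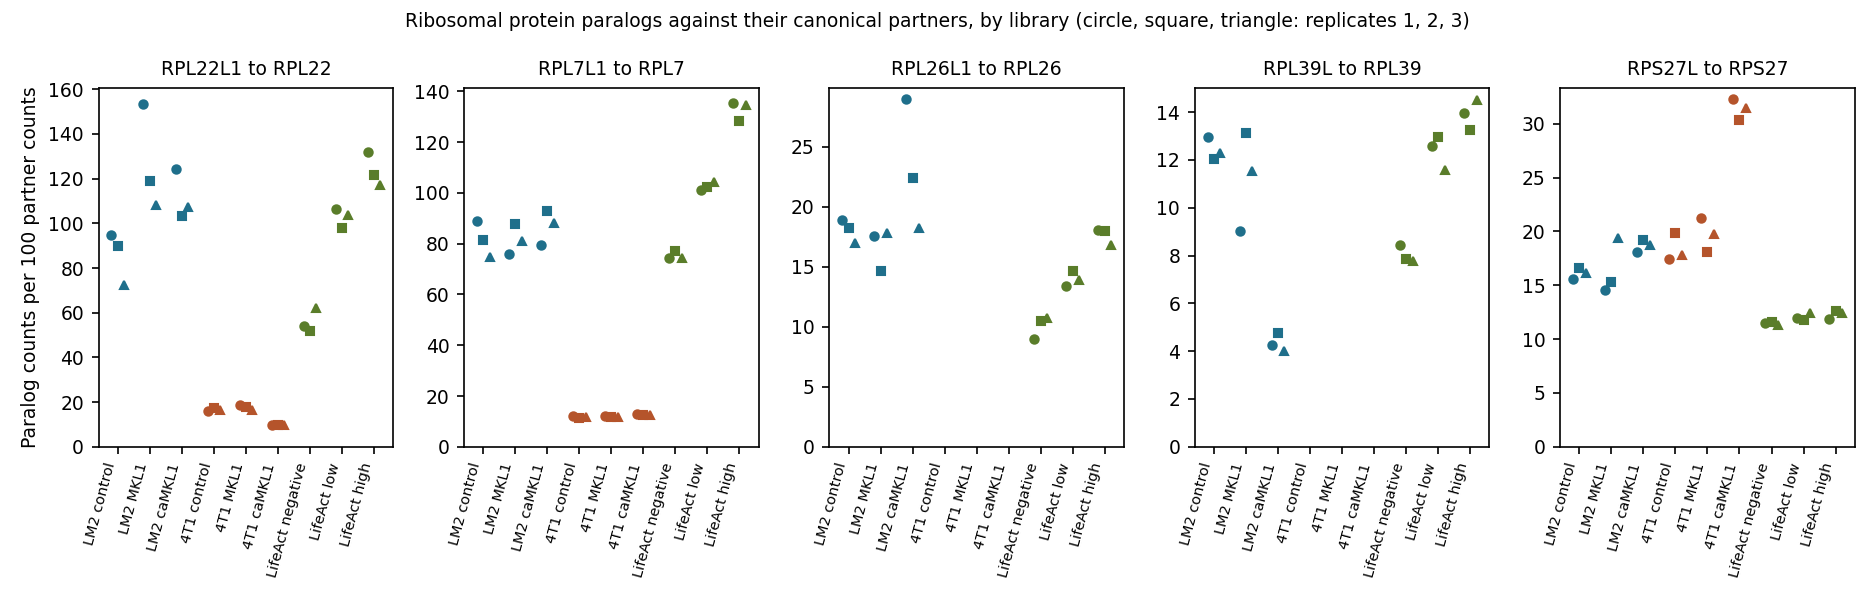
Counts of each paralog per 100 counts of its partner (y axis) in each library (points) of the 9 groups. RPL22L1 per 100 RPL22 is 56.2 in LifeAct negative and 123.6 in high cells on average, and RPL39L per 100 RPL39 is 12.4 in LM2 controls and 4.33 in caMKL1 cells.

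Other genes of ribosome production were counted in lists, to be read beside the shares of all genes called. Over all genes 33.0% were lower and 31.9% higher in LM2 caMKL1, and 35.8% and 36.2% in 4T1 caMKL1. In LifeAct high 35.2% were lower and 36.0% higher. Of 48 ribosome assembly factors 34 fell and 3 rose with caMKL1 in LM2 (median -0.68), 40 fell and 5 rose in 4T1 (median -0.44), and 47 rose and 0 fell in LifeAct high cells (median 0.98). Their medians lay further from 0 than those of the members in LM2 caMKL1 and LifeAct high, and close to the members' median in 4T1 caMKL1. These differences were not tested. In LM2 caMKL1, the snoRNP methyltransferase FBL (log2 -1.55) and the nucleolar protein TCOF1 (-1.33) fell, while SBDS, which acts in the last step of large subunit maturation, rose by 2.34 in LM2 and by 1.85 in 4T1. WDR12, a large subunit assembly factor, stood at 1058 ± 112 CPM (SD, n = 3) in LM2 caMKL1 cells and 57.0 ± 4.46 CPM in controls (log2 4.21). In LifeAct high cells DDX21 (1.65), UTP4 (1.58), NOP56 (1.43) and NOLC1 (1.39) rose. With wild-type MKL1, 19 of 48 rose and 0 fell in LM2 (median 0.35), and 1 rose and 36 fell in 4T1 (median -0.18).

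Of the noncoding snoRNA host genes, which are TOP transcripts themselves, 9 of 15 fell and 1 rose with caMKL1 in LM2 (median -0.50), 10 of 13 fell and 1 rose in 4T1 (median -0.73), and 14 of 15 rose in LifeAct high cells (median 0.84). GAS5 was among them at -1.07 in LM2 and -0.74 in 4T1 caMKL1. Of RNA polymerase I components, 9 of 15 fell and 3 rose in LM2 caMKL1, 9 of 12 fell and 1 rose in 4T1 caMKL1, and 12 of 15 rose in LifeAct high, with POLR1A at -0.98 in LM2 and -1.29 in 4T1 caMKL1 and POLR1E at 1.46 in LifeAct high. Other TOP mRNAs, mostly translation factors, gave 8 of 18 lower and 1 higher in LM2 caMKL1 (median -0.29), 13 of 19 lower and 3 higher in 4T1 caMKL1 (median -0.37), and 10 of 18 higher and 5 lower in LifeAct high (median 0.15). HNRNPA1 fell by 1.49 and 1.09 on the log2 scale in LM2 and 4T1 caMKL1, and EEF1A1 by 0.50 in LifeAct high. These counts too are read beside the shares of all genes given above.

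Mitochondrial ribosomal proteins, which build the separate ribosome of mitochondria, gave 31 of 77 lower and 7 higher in LM2 caMKL1 (median -0.27), 20 lower and 29 higher in 4T1 caMKL1 (median 0.07), and 65 higher and 1 lower in LifeAct high (median 0.55). The 4T1 direction followed the scaling, with 34 lower and 15 higher and a median of -0.11 under library totals, while the cytosolic members were mostly lower under both scalings. Chaperones of ribosomal proteins gave 6 of 7 lower in LM2 caMKL1, 4 of 6 lower and 1 higher in 4T1 caMKL1 and 7 of 7 higher in LifeAct high. Of the mTOR and LARP1 genes 5 of 15 fell and 3 rose in LM2 caMKL1, with LARP1 at -0.94, and 11 of 16 rose and 2 fell in LifeAct high. All genes gave 33.0% lower and 31.9% higher in LM2 caMKL1, so the share of this list that fell there was near the background. In LifeAct high all genes gave 36.0% higher and 35.2% lower. In 4T1 caMKL1 7 of 16 rose and 5 fell (median 0.10), or 4 and 6 with library totals (median -0.09). With TMM scaling 36.2% of all genes were higher and 35.8% lower there. MYC itself had log2 ratios of 1.09 in LM2 MKL1, -0.66 in LM2 caMKL1, -0.74 in 4T1 caMKL1, 0.63 in LifeAct low and 1.13 in LifeAct high, all past the test, and 0.04 in 4T1 MKL1, which did not pass.

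Within control cells, members differed widely in level. In CPM per kilobase of summed exon length, the highest in LM2 controls were RPS12 (396 ± 30.7, SD, n = 3), RPL7A (363 ± 4.39) and RPL12 (280.0 ± 8.82), and the gap between RPS12 and RPL7A was close to the SD of RPS12. In LifeAct negative cells they were RPS12 (493 ± 11.7), RPS18 (441 ± 3.86) and RPL7A (424 ± 16.6), with RPS18 and RPL7A within about 1 SD of each other, and in 4T1 controls Rplp1 (1151 ± 15.2), Rps15 (752 ± 23.4) and Rpl4 (748 ± 4.72), with Rps15 and Rpl4 within their spread. The lowest human members were RPL3L, RPL10L and RPS10, the last at 1.92 ± 0.203 in LM2 controls and 2.96 ± 0.189 in LifeAct negative cells. Summed exon length counts every annotated isoform, so it is longer than the mRNA for genes such as RPS29, whose exons sum to 9840 bases. Reads that map to more than 1 place were left uncounted, and the many processed pseudogenes of this family can take such reads from the members. Annotated pseudogenes of the members, 1297 human and 321 mouse names, held 0.036 to 0.110% of counts per library.

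The make-up of the family also differed between the polyA selected LM2 controls and the LifeAct negative cells of the same line. RPL22L1 made up 0.257% of member counts in LM2 controls and 0.0719% in LifeAct negative cells, RPS24 3.70% and 1.23%, and RPL22 0.302% and 0.128%. In the other direction RPS19 made up 0.3298% and 1.15% and RPL13 0.858% and 2.75%. Over 83 members, the log2 ratio of these shares ran with the GC content of the coding sequence (Pearson r = 0.81, Spearman rho = 0.81) and not with coding length (r = 0.053). The points share the same 6 libraries and the 2 selection methods, experiment and selection cannot be told apart, and no p is given. RPS24, RPS19 and RPL13 were chosen for their difference after it was seen. Within experiments the relation to coding GC was weaker, at r = -0.24 for LM2 caMKL1 (-0.37 without replicate 1 of MKL1 and caMKL1) and -0.0089 for LifeAct high.

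**Figure D5:**
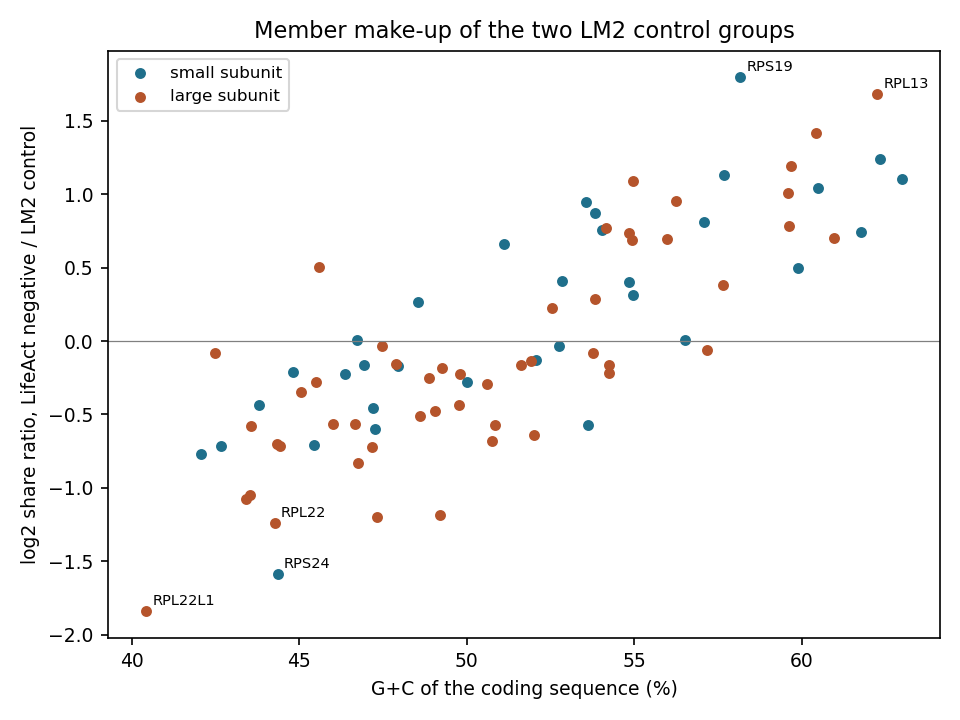
Coding GC content in percent (x axis) and log2 ratio of each member's share of member counts in LifeAct negative to LM2 control cells (y axis) for 83 members. AT-rich members such as RPL22L1, at -1.84, lie low and GC-rich members such as RPS19, at 1.80, lie high.

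Members with and without a TOP start were set side by side, and the difference between these classes was not tested. The class rests on the exact annotated start base. RPL19 and RPS7 count as without a TOP start, although pyrimidine runs of 12 and 11 bases cover their starts. RPL9 and RPL10A count so too, with pyrimidine runs that begin shortly after the start. With caMKL1 in LM2, members with a TOP start had a median log2 ratio of -0.40 (26 of 48 lower, 1 higher) and those without one -0.32 (8 of 19 lower, 3 higher). In 4T1 caMKL1 the medians were -0.39 (41 of 47 lower, 1 higher) and -0.33 (15 of 18 lower, 2 higher), with the human start sites assigned by symbol. In LifeAct high cells they were 0.16 (30 of 48 higher, 7 lower) and 0.25 (14 of 19 higher, 2 lower). RPL39, with a 22-base pyrimidine run at its annotated start, and RPS29, with 2 bases at its own, both rose in LM2 caMKL1. Members that carry a snoRNA gene inside had medians of -0.40 in LM2 caMKL1, -0.47 in 4T1 caMKL1 and 0.10 in LifeAct high, against -0.36, -0.38 and 0.21 for those that do not. Longer coding sequences went with lower ratios in LM2 caMKL1 (Pearson r = -0.36, n = 83 members from the same 6 libraries) and in LifeAct high (r = -0.26), but not in 4T1 caMKL1 (r = 0.13, n = 80).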

How the data were processed

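Gene expression was measured by RNA-seq in 27 libraries, 3 replicates in each of 9 groups. The deposited tables hold raw counts, read pairs summed over the exons of each gene name, which the authors made with featureCounts 2.0.1 on STAR alignments against Ensembl release 103 (GRCh38) or 102 (GRCm38), per the file headers. The version of STAR was not given in the sources used here. Strand was not set in the command in the headers, nor was any option for reads that map to several places or overlap several genes, and featureCounts by default does not count such reads. DESeq2, hg38 and mm10 are named in the submitters' processing notes.

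From the counts, each table was fitted whole with edgeR 4.0.16 (R 4.3.3, limma 3.58.1): genes passing filterByExpr, TMM scaling within an experiment, 1 mean per group, the quasi-likelihood test, and Benjamini-Hochberg adjustment over all genes tested at 0.05. Log2 ratios are given with the standard error of the fit, and CPM are TMM scaled. The response of the lines was compared in 1 fit of 18 libraries over genes matched by symbol. Shares and ratios per library were compared with exact permutation tests. The scripts were tested on simulated data. RefSeq promoters (GRCh38.p14) and GENCODE coding sequences gave the sequence features. Levels per kilobase use the summed exon length in the count tables.

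The members, the other gene lists and the tests were chosen with earlier results of these data known. Genes were named by rule: the paralogs and their partners, the stalk, RPSA, FAU and RPS27A, the 6 largest rises and falls that passed in a comparison, the 3 highest and lowest members in control cells, those called alike in caMKL1 and LifeAct high cells, and up to 4 genes of each other list by smallest p. Names outside the rule are marked in the text, and a few genes that the rule names are not reported here. Alternatives were DESeq2 1.42.0, its size factors, limma voom, library totals, TMM without the members or without mitochondrially encoded genes, no filter on low counts, only the groups compared, a replicate block, each library left out in turn, and replicate 1 of LM2 MKL1 and caMKL1 left out together.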

Additional observations from a re-analysis of the deposited data

Results flagged for a closer look

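The response to the constructs differed between the human and the mouse line by the test of the difference itself. With caMKL1, 26 of 81 members had a lower and 9 a higher response in 4T1 than in LM2, beside 29.6% of all genes lower and 30.7% higher, and library totals turned the split to 5 lower and 22 higher. Among the members, 4 passed the test in both lines with opposite signs, and the difference, 4T1 minus LM2 on the log2 scale, was -1.85 for RPS29, -1.48 for RPL39, 1.02 for RPL17 and 0.92 for RPS2. With library totals the LM2 rise of RPL39 did not pass (log2 0.22, edgeR, adjusted p = 0.29). Human RPL17 is counted at a low level and shares 35.3% of its exon bases with other annotated genes. Mouse Rpl17 shares 0%, so the counts of the 2 lines do not cover the same part of this gene. The 4T1 rise of RPS2, 0.06 on the log2 scale, was lost in 6 of the leave-outs of 1 library and turned to -0.12 with library totals. With wild-type MKL1, 55 members had a lower response in 4T1, beside 10.6% of all genes, and the number was 31 with library totals and 29 to 71 with 1 library left out. Of these, RPL14 (-0.61) and RPL9 (-0.57) passed the test in both lines with opposite signs, but both lost their LM2 calls without any 1 control or without MKL1 replicate 1.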

How the results depend on the processing

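Of 168 named values that passed the test, DESeq2 and its size factors kept direction and call for 166 each, TMM without mitochondrially encoded genes and TMM without the members for all 168, limma voom and fits of only the groups compared for 163 each, no filter for 166 and library totals for 144. Under library totals 22 lost their call and 2 turned sign: RPL26L1 in LM2 caMKL1 (-0.035) and Rps2 in 4T1 caMKL1 (-0.12). Leaving out 1 library at a time turned the sign of 0 values, kept 1692 calls and ended 117. The cause of these changes was not tested.

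Counts of members moved by over 1.5 times as follows. For LM2 MKL1, 3 higher became 9 with DESeq2, 1 with library totals and 55 without a filter. For LM2 caMKL1, 4 higher became 1 with library totals, 8 with only the groups compared and 8 without replicate 1 of both groups, and 45 lower became 70 with library totals. For LM2 caMKL1 against MKL1, 1 higher became 0 with library totals, 2 without a filter and 5 without replicate 1 of both. With library totals, 4 higher in 4T1 caMKL1 became 2, 10 higher against 4T1 MKL1 became 5, 8 lower in LifeAct high against low became 30 (16 with only the groups compared), and 55 lower in the MKL1 response between lines became 31. For the caMKL1 response between lines, 9 higher became 22 with library totals and 20 without replicate 1 of both, and 26 lower became 5 with library totals.

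With 1 library left out in turn, the number higher ranged from 1 to 23 in LM2 MKL1, 3 to 7 in LM2 caMKL1, 1 to 4 in LM2 caMKL1 against MKL1 and 10 to 15 in the caMKL1 response between lines. The number lower ranged from 1 to 2 in LifeAct low, 7 to 15 in LifeAct high, 7 to 14 in LifeAct high against low, 16 to 31 in the caMKL1 response and 29 to 71 in the MKL1 response between lines.

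Same-numbered replicates deviated together in some pairs and not in others: correlations of deviations from the group means ran from -0.013 to 0.398 for LM2 pairs, from -0.0379 to 0.274 for 4T1 pairs and from -0.0431 to 0.0145 for LifeAct pairs, and since not every pair within an experiment was above 0.1, the numbers were not taken as pairs. With the replicate block, members higher numbered 15 in LM2 MKL1, 2 in LM2 caMKL1 against MKL1 and 14 in the caMKL1 response between lines, and the 168 named values kept their calls.

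RPL3L and RPL10L had too few counts to test, members that share exon bases or have many pseudogenes are counted in part, and with 3 libraries a group the smallest p of an exact permutation test is 0.1.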
